A study of Mus musculus with 10 samples.

Results

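The MLL::ENL spleen tumors were compared to WT cKit+ bone marrow cells, taking the 3 libraries titled for MLL::ENL mice (NO, RL and L) and the 2 titled for WT marrow (WT 1 and WT 2), which make up 5 of the 10 RNA-seq libraries of the series. Each library came from 1 mouse. In the MLL::ENL mice, sorted Lineage- Sca-1+ cKit+ marrow cells of WT mice had been transduced with a retrovirus carrying MLL::ENL and transplanted, with WT marrow, into lethally irradiated WT mice, which were left untreated and killed when ill. Tumor cells were selected from the spleen with magnetic beads against cKit, Gr1 and Mac1, so the recipient's own myeloid cells could also be retained. The WT mice carried no fusion and gave cells selected from bone marrow by cKit, and all mice were on a C57BL/6 background. Ages at sampling are not given in the sources used here, and illness in MLL::ENL mice was timed from transplantation. The methods state that littermate controls of the Cbfb::MYH11 mice received Poly(I:C), an inducer of interferon, without saying whether the sequenced WT mice were among them. Spleen or marrow, retroviral transduction, transplantation and irradiation all go with the fusion, so these influences cannot be told apart in any difference below.

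MLL, encoded by Kmt2a, is a histone methyltransferase that keeps developmental genes active, and translocations join its DNA-binding end to a partner such as ENL, encoded by Mllt1. ENL belongs to complexes that promote transcription elongation and recruit the H3K79 methyltransferase DOT1L, and the fusion is known to hold the Hoxa cluster and the cofactor gene Meis1 active in leukemic cells. cKit is the receptor for stem cell factor and marks stem cells and progenitors of many blood lineages, so cKit+ marrow is a mixture that includes precursors of red cells, mast cells and granulocytes.

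Levels are given in CPM, counts scaled to a common library size with TMM-adjusted totals, in the order MLL::ENL NO, RL and L, then WT 1 and WT 2. Fold changes are log2 values from edgeR's quasi-likelihood test, which fitted all 10 libraries together and corrected p-values over 14875 genes. A gene is called when its adjusted p is under 0.05, and p-values measure only the spread between these mice. Library totals were 12134911 to 19345832 counts in MLL::ENL tumors, and 17953827 and 20510567 counts in WT cells. In bulk RNA, fewer cells of a type and less RNA per cell cannot be told apart, which applies to every cell-type gene below.

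The sex-linked genes went against the labels. The labels give female for MLL::ENL NO and RL and for both WT mice, and no sex for MLL::ENL L. Ddx3y, a Y-linked RNA helicase gene, had 35.9, 41.1 and 32.3 CPM in the MLL::ENL tumors, against 0 in both WT libraries. Xist, the RNA that coats the inactive X chromosome, had 2.5, 0.947 and 0.469 CPM in the MLL::ENL tumors, against 33.8 and 78.2 CPM in WT cells. All 3 MLL::ENL libraries therefore carried Y-linked transcripts that neither WT library carried, and sex also goes with condition here. Eif2s3y, Kdm5d and Uty, also Y-linked, had 118, 59.2 and 59.1 CPM, 14.8, 21.8 and 18.4 CPM, and 5.84, 13.1 and 11 CPM in the tumors, against at most 0.0789 CPM in a WT library. Whether the sex label refers to the donor of the cells or to the recipient is not given in the sources used here. Kit itself had 46.6, 119 and 76.5 CPM in MLL::ENL tumors, against 65.6 and 88.6 CPM in WT cells, and Itgam, the Mac1 integrin chain, had 1000, 342 and 373 CPM, against 458 and 643 CPM, with both groups overlapping.

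Of 14875 genes tested, 318 were called (2.14%): 86 were higher in MLL::ENL tumors (0.578%) and 232 were lower (1.56%). In all of these the MLL::ENL and WT libraries did not overlap, which selection by a test on the same libraries favors. Of all tested genes, 21.2% had every tumor above both WT libraries and 23.1% had every tumor below them. The shares called, 0.578% higher and 1.56% lower, are the background for every count of called list members below. The median log2 fold change over all tested genes was 0.02, and among called genes the size of the log2 fold change had a median of 3.18. The count rested strongly on single mice. Leaving out WT 1 gave 24 and leaving out WT 2 gave 60. Among the tumors compared, 71 were called once MLL::ENL RL was left out, 109 once MLL::ENL L was and 210 once MLL::ENL NO was. The other models enter through the filter on low counts and the shared estimate of the spread, and dropping Cbfb::MYH11 30 gave 156, dropping Cbfb::MYH11 27 gave 154, dropping MLL::AF9 47 gave 538 and dropping MLL::AF9 2 gave 723. Without WT 1 no gene was called higher, with 675 below an unadjusted p of 0.05, so no rise described below was kept without that library. Without WT 2 only 3 genes of all those tested were called higher. With MLL::ENL L as the only MLL::ENL library, leaving out both tumors that went against their sex label, 2 genes were called higher, Tsc22d2 and Tcf24, and 7 lower, Epx, Ear6, Alox15, Ms4a2 and Car1 among them. DESeq2 on the same counts called 1815 genes. No called gene changed direction in any of these fits.

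Several genes of the Hoxa cluster, which encodes developmental regulators, were higher in MLL::ENL tumors. Hoxa5, a homeobox transcription factor on chromosome 6 from 52201754 to 52204587, had 32.9, 76.6 and 49.1 CPM in MLL::ENL tumors, against 0.632 and 0.754 CPM in WT cells. Every tumor was far above both WT libraries, and the log2 fold change was 6.23 (standard error 0.77, edgeR adjusted p = 0.0072). Hoxa9, the cluster gene best known for driving myeloid leukemia, had 149, 191 and 173 CPM, against 6.08 and 3.12 CPM, from 52223100 to 52231089 on the same chromosome. Its level hardly varied among the tumors, and the log2 fold change was 5.22 (standard error 1.09, edgeR adjusted p = 0.0457). Hoxa7 had 59.5, 62.5 and 59.7 CPM, against 1.89 and 3.72 CPM, and Hoxa10 had 55.8, 82 and 61.2 CPM, against 0.789 and 0.352 CPM. Both were called (log2 fold changes of 4.41 and 6.90, edgeR adjusted p = 0.034 and 0.0499). Hoxa3 had 8.63, 21.6 and 12.6 CPM in the tumors, against 2 counts in the WT libraries together, a ratio of 255 (95% exact counting interval 70.2 to 2110, edgeR adjusted p = 0.021). Hoxa6 had 4.17, 7.21 and 4.53 CPM, against 0 and 0.251 CPM, and Hoxa4 had 1.58, 1.67 and 2.71 CPM, against 0.395 and 0.1 CPM, with no overlap and no call (edgeR adjusted p = 0.075 and 0.24). Hoxa11 had 1.39, 12.2 and 3.49 CPM, against 0 in both WT libraries, at least 73.3-fold higher (edgeR adjusted p = 0.065). Neighboring Hoxa transcripts overlap, and whether the counting used strand is not given, so the split of reads between them is uncertain. Of the fits that left out 1 library, Hoxa5 lost its call only in those without WT 1 or WT 2 (adjusted p up to 0.12), whereas Hoxa9 and Hoxa10 were each called in 2 of the 10, those without MLL::AF9 2 or MLL::AF9 47.

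**Figure D1:**
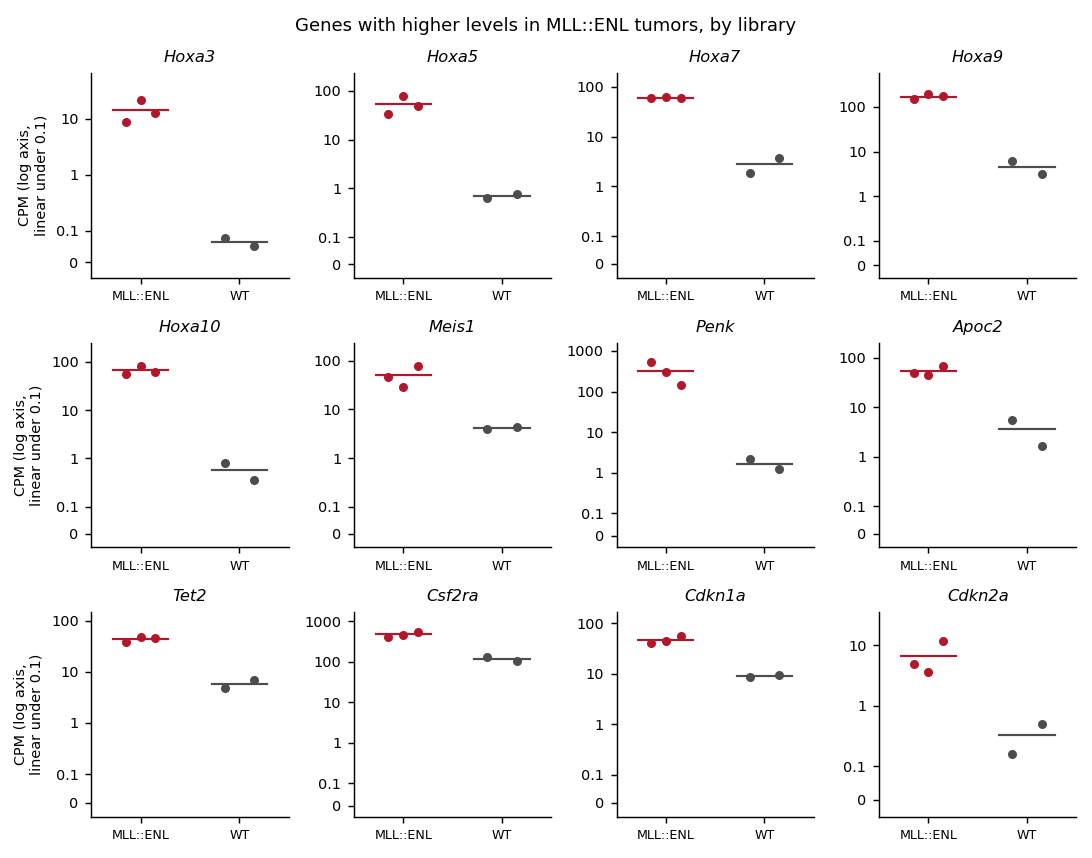
CPM of 12 genes in each library (points) with the group mean (line), MLL::ENL tumors (n = 3) left and WT cKit+ cells (n = 2) right, on a log axis that is linear under 0.1 CPM. Every MLL::ENL point lies above every WT point, as for Penk at 529, 305 and 145 CPM against 2.13 and 1.21 CPM; Meis1 was not called.

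The Hoxa genes were part of a list of 28 targets known from MLL fusion leukemia. Of these, 8 were higher, 1 was lower and 19 did not pass, with a median log2 fold change of 2.36 where the median of all tested genes was 0.02. In 20 of the 28 every tumor lay above both WT libraries, a pattern that 21.2% of all tested genes showed. The list was chosen with earlier results of these data known, so these counts describe it and do not test it. Zeb2, a zinc finger repressor, had 59, 118 and 130 CPM in MLL::ENL tumors, against 16.9 and 28.8 CPM in WT cells (log2 fold change 2.17, edgeR adjusted p = 0.036). Runx2, a core-binding transcription factor, had 64, 70.5 and 72.7 CPM, against 10.3 and 12 CPM, and was called at a log2 fold change of 2.63 (edgeR adjusted p = 0.048). Cpeb2, a regulator of mRNA translation, was called as well at 30.6, 27.3 and 19.1 CPM in the tumors, against 8.05 and 7.99 CPM in WT cells. Meis1, the DNA-binding partner of HOXA9, had 46.9, 29.5 and 78.1 CPM, against 4.03 and 4.27 CPM. The tumors did not overlap with WT, but the log2 fold change of 3.63 was not past the threshold (edgeR adjusted p = 0.11). The same held for Pbx3, a further HOX cofactor, at 14.3, 16.7 and 35.6 CPM, against 2.68 and 2.91 CPM (edgeR adjusted p = 0.0528), and for Igf2bp3, an RNA-binding protein of fetal cells, at 47.5, 85.8 and 84.1 CPM, against 0.316 and 0 CPM (edgeR adjusted p = 0.097). Cdk6, a cell cycle kinase, had 357, 656 and 633 CPM, against 89 and 116 CPM, and Myb had 233, 624 and 703 CPM, against 121 and 137 CPM, without a call (edgeR adjusted p = 0.17 and 0.18). In the opposite direction, Kcnn4, a calcium-activated potassium channel, had 20, 16.9 and 28.6 CPM in the tumors, against 149 and 134 CPM, and this call was kept without any 1 library (log2 fold change −2.69, edgeR adjusted p = 0.003). Mecom and Eya1, a pair of transcriptional regulators on the list, had 1 count each in the 3 tumors together, against 17 and 39 counts in the WT libraries, and neither passed. Leaving out either WT library left 0 targets called higher, and leaving out MLL::ENL RL left 1. There were 3 once MLL::ENL NO, MLL::ENL L or either Cbfb::MYH11 library was dropped, 4 once MLL::AF9 42 was, 13 once MLL::AF9 2 or 47 was, and 17 by DESeq2.

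None of 19 genes of the MLL fusion partners and of the DOT1L, menin and elongation complexes was called by edgeR, with 3 higher and 4 lower below an unadjusted p of 0.05, while DESeq2 called 2 and limma 0. Kmt2a had 44.6, 39.1 and 37.1 CPM in MLL::ENL tumors, against 12.8 and 23.1 CPM in WT cells (edgeR adjusted p = 0.22). Mllt1 had 37.2, 53.5 and 53.1 CPM, against 31.7 and 50.1 CPM, so both groups overlapped. The fusion has no entry of its own among the genes tested.

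Beyond the targets, the higher genes included signaling, metabolic and transcription factor genes. Penk, the precursor of enkephalin peptides, on chromosome 4 from 4133531 to 4138819, had 529, 305 and 145 CPM in MLL::ENL tumors, against 2.13 and 1.21 CPM in WT cells. The lowest tumor was still far above WT, and the log2 fold change of 7.63 (standard error 1.04, edgeR adjusted p = 0.01) was lost without WT 1 or WT 2 (adjusted p up to 0.14). Apoc2, which encodes the cofactor of lipoprotein lipase, on chromosome 7 from 19671579 to 19677941, had 49.2, 44.7 and 67.4 CPM, against 5.53 and 1.61 CPM. The change was 3.93 on the log2 scale (standard error 0.66, edgeR adjusted p = 0.022), lost when WT 1, WT 2, MLL::ENL RL or MLL::ENL L was left out (adjusted p up to 0.10). Its neighbor Apoe ran the other way at 33.4, 41.6 and 64.6 CPM, against 191 and 107 CPM, with no call (edgeR adjusted p = 0.19), and of 9 genes of that apolipoprotein locus Apoc2 was the 1 that passed.

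Several called genes encode secreted or surface proteins. Cfb, complement factor B, had 14, 34.9 and 18.9 CPM in MLL::ENL tumors, against 1.66 and 0.854 CPM in WT cells (log2 fold change 4.18, edgeR adjusted p = 0.0085). Gpx3, the plasma glutathione peroxidase, had 240, 336 and 158 CPM, against 26.5 and 20 CPM, and F10, coagulation factor X, had 295, 196 and 207 CPM, against 16.7 and 29.1 CPM. Lrp1, a large endocytic receptor, had 133, 465 and 150 CPM, against 15.3 and 29.4 CPM, and Shisa2, which retains WNT and FGF receptors inside the cell, had 44.4, 73.7 and 36.4 CPM, against 1.03 and 0.603 CPM. All of these passed. Csf2ra, the alpha chain of the GM-CSF receptor, was the 1 called gene among 25 cytokine receptors, at 403, 465 and 560 CPM in the tumors, against 133 and 102 CPM (log2 fold change 2.01, standard error 0.26, edgeR adjusted p = 0.0085). Csf2rb2 and Il3ra, which encode chains of the related IL-3 receptor, had 105, 92.8 and 53.4 CPM, against 13.9 and 37.7 CPM, and 55.8, 61.6 and 96.6 CPM, against 27.3 and 21.1 CPM. Neither overlapped with WT and neither passed (edgeR adjusted p = 0.079 and 0.11). The list's median log2 fold change was 0.09. None of the 25 was called lower, with 5 below an unadjusted p of 0.05, while DESeq2 called 5 and limma 4.

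Inside the cell, Tsc22d2, a leucine zipper protein, had 91.6, 246 and 185 CPM in MLL::ENL tumors, against 13.8 and 17.6 CPM in WT cells (log2 fold change 3.47, standard error 0.43, edgeR adjusted p = 0.0075). Pde1b, a calmodulin-dependent phosphodiesterase, had 46.9, 31.1 and 57.5 CPM, against 2.29 and 4.77 CPM, and Adcy7, which makes cyclic AMP, had 183, 161 and 161 CPM, against 38.1 and 51.2 CPM. An enzyme that makes cyclic nucleotides and one that degrades them were thus both higher (log2 fold changes of 1.91 for Adcy7 and 3.66 for Pde1b). Tet2, which oxidizes 5-methylcytosine and is often mutated in human AML, had 37.6, 48.6 and 46.5 CPM, against 4.74 and 6.93 CPM. It was the only one of 12 genes for DNA methylation, TET and IDH enzymes to pass (log2 fold change 2.92, edgeR adjusted p = 0.016), and its call was lost when MLL::ENL RL or either WT library was left out (adjusted p up to 0.21).

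Genes of growth arrest and cell death were also among those called higher. Cdkn1a, which encodes the CDK inhibitor p21, had 41.4, 44 and 54.8 CPM in MLL::ENL tumors, against 8.45 and 9.25 CPM in WT cells (log2 fold change 2.40, edgeR adjusted p = 0.022). Cdkn2a, which encodes p16 and p19ARF, had 4.92, 3.61 and 11.7 CPM, against 0.158 and 0.502 CPM (log2 fold change 4.27, edgeR adjusted p = 0.036). Of 18 genes for D cyclins, CDKs and CDK inhibitors, 2 were higher, 1 was lower and 15 did not pass, with a median log2 fold change of −0.15. Pmaip1, the BH3-only protein NOXA, had 31.5, 54.7 and 67.6 CPM, against 5.29 and 2.91 CPM, and was the only one of 17 BCL-2 family genes past the threshold (edgeR adjusted p = 0.0495). All 3 were higher in every tumor than in either WT library, and the calls of the 3 were lost without WT 1, WT 2, MLL::ENL RL or MLL::ENL L. The Cdkn2a call was also lost without either Cbfb::MYH11 library, and that of Pmaip1 without MLL::ENL NO or MLL::AF9 42. Ccne1, the cyclin that starts DNA replication, was lower at 24.5, 27.2 and 18.9 CPM, against 104 and 70.9 CPM (log2 fold change −1.89, edgeR adjusted p = 0.015). Of 26 DNA replication genes 1 was lower, the clamp loader gene Rfc4 at 35.7, 31.8 and 26.9 CPM, against 69.9 and 63.8 CPM, and none was higher (0 below an unadjusted p of 0.05, while DESeq2 called 0 and limma 0). Of 20 mitosis genes none was called by edgeR, with 6 lower below an unadjusted p of 0.05, while DESeq2 called 4 and limma 0, and the median log2 fold changes of the 2 lists were −0.38 and −0.27.

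A few genes were read in tumors and not in WT cells. Dmrtb1, a DM domain transcription factor known from spermatogenesis, had 57.3, 221 and 51.1 CPM in MLL::ENL tumors, against 0 counts in both WT libraries, at least 1360-fold higher with a floor of 3 counts over the WT group. Tcf24, a basic helix-loop-helix factor gene, had 17.3, 29.3 and 93.4 CPM, at least 548-fold higher by the same floor. Trim66 had 6.49, 6.18 and 5.21 CPM and Cited1, a transcriptional coactivator, had 1.3, 1.94 and 1.04 CPM, at least 63.9-fold and 16-fold higher. All 4 were called, and each was present in every tumor. Of the 10 fits that left out 1 library, Tcf24 was called in 8, Dmrtb1 in 6, and Trim66 and Cited1 in 2 each. The Cited1 call was also lost in a fit of the MLL::ENL and WT libraries alone.

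The lower genes were led by eosinophil granule and receptor genes. Epx, the eosinophil peroxidase, on chromosome 11 from 87864000 to 87875536, had 0, 0.0451 and 0.313 CPM in MLL::ENL tumors, against 1140 and 1020 CPM in WT cells. Its adjusted p of 0.00059 from edgeR was the smallest of all genes, at a log2 fold change of −12.92. Prg2, which encodes eosinophil major basic protein, had 1.86, 3.07 and 27.7 CPM, against 14700 and 4950 CPM (log2 fold change −9.81, edgeR adjusted p = 0.01, and 0.06 without WT 1). Ear1, an eosinophil-associated ribonuclease, had 0 counts in all 3 tumors, against 1620 and 780 CPM, at least 19300-fold lower, though the Ear genes are close paralogs that can share reads. Ear6, Alox15, a lipoxygenase, and Ccr3, the eotaxin receptor, were called too, with at most 0.371, 0.313 and 0.99 CPM in a tumor, against at least 647, 147 and 28.7 CPM in a WT library. In all, 6 of 11 tested eosinophil genes were lower and none was higher, with 0 below an unadjusted p of 0.05, while DESeq2 called 0 and limma 0 in that direction. The median log2 fold change was −6.18. Over the same WT libraries it was −8.05 in MLL::AF9 and −8.85 in Cbfb::MYH11 tumors, so this fall was not particular to MLL::ENL. Summed over the list, the tumors held 639, 227 and 260 CPM, against 21300 and 8810 CPM in WT cells, and 6, 4 and 2 of the 12 members in the files were at 0 in the tumors, against none in either WT library. Siglecf, an eosinophil surface lectin, and Cebpe, which both granulocyte types use, had log2 fold changes of 0.69 and −0.74 and did not pass. The count was 4 without WT 1, and 5 to 7 without any other library.

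Basophil and mast cell genes divided. Prss34, a basophil protease, had 0, 0.135 and 0 CPM in MLL::ENL tumors, 3 counts in all, against 205 and 74.1 CPM in WT cells, a ratio of 2180 (95% exact counting interval 744 to 10600). Fcer1a, the IgE-binding chain of the high-affinity receptor, had 0 counts in all tumors, against 14.8 and 11 CPM, at least 217-fold lower. Both calls were kept without any 1 library (edgeR adjusted p = 0.0039 for each). Ms4a2, the beta chain of the same receptor, had 1.86, 3.16 and 0.573 CPM, against 9.79 and 8.39 CPM, just outside the threshold (edgeR adjusted p = 0.0502). Cpa3, a mast cell carboxypeptidase, and Gata2 did not follow: Cpa3 had 0.371, 11.1 and 167 CPM, against 19.4 and 17.6 CPM, and Gata2 had 2.5, 9.15 and 69.8 CPM, against 27.6 and 24.6 CPM. The tumor MLL::ENL L was above both WT libraries in these 2 genes and the others were below them. Of 11 tested members 2 were lower and none was higher (0 below an unadjusted p of 0.05, while DESeq2 called 0 and limma 0). The median log2 fold change was −3.40, or −2.27 with the 2 members that had 0 counts in a group set at their bounds. Leaving out MLL::ENL RL, MLL::AF9 2 or MLL::AF9 47 gave 4 lower members, and leaving out either of the other MLL::ENL libraries gave 3.

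Red cell genes were low in every tumor, though few passed. All 24 erythroid genes were lower in each MLL::ENL tumor than in either WT library, a pattern that 23.1% of all tested genes showed, with a median log2 fold change of −3.75. Of these, 3 were called. Klf1, the erythroid Krüppel-like factor, on chromosome 8 from 84901928 to 84905291, had 2.78, 1.4 and 0.677 CPM in MLL::ENL tumors, against 250 and 151 CPM in WT cells (log2 fold change −7.0, standard error 0.99, edgeR adjusted p = 0.012, and up to 0.088 without WT 1 or MLL::ENL RL). Car1, the red cell carbonic anhydrase, had 4.55, 0.361 and 0.208 CPM, against 460 and 286 CPM, and Blvrb, biliverdin reductase B, had 64.1, 19 and 30.4 CPM, against 566 and 261 CPM. Gata1, the master erythroid factor, had 4.82, 0.767 and 0.625 CPM, against 145 and 84.7 CPM, and was not called (edgeR adjusted p = 0.057). The globins varied between mice within both groups. Summed over the list, erythroid genes held 11700, 2620 and 627 CPM in the tumors, against 214000 and 46900 CPM in WT 1 and WT 2, and the part of this spread in the missing calls was not tested. Of the 24, no gene was called without WT 1, 1 was once MLL::ENL RL was dropped and 2 once MLL::ENL L was, 5 without any 1 of the MLL::AF9 libraries, while DESeq2 called 5 and limma 13. Gfi1b, the repressor shared by red cells and megakaryocytes, had 2.5, 0.316 and 1.56 CPM, against 68.7 and 54.5 CPM (log2 fold change −5.46, edgeR adjusted p = 0.0071, and 0.051 without WT 1).

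In the heme pathway several later steps were lower, and the first enzyme of most cells did not pass. Of 9 heme synthesis enzymes 6 were lower in MLL::ENL tumors, none was higher (0 below an unadjusted p of 0.05, while DESeq2 called 0 and limma 0) and 3 did not pass, with a median log2 fold change of −2.50. Alad, which joins 2 aminolevulinate molecules, had 29.5, 16 and 14.9 CPM in MLL::ENL tumors, against 273 and 163 CPM in WT cells (log2 fold change −3.44, edgeR adjusted p = 0.0071). Uros, uroporphyrinogen III synthase, had 5.75, 6.04 and 5.73 CPM, against 71.3 and 43.1 CPM, and kept its call without any 1 library (log2 fold change −3.29, standard error 0.31, edgeR adjusted p = 0.0029). Urod, Cpox and Fech, which act after these steps, were lower by 2.16 to 3.40 on the log2 scale. Alas1, the first enzyme in most cells, had 265, 390 and 330 CPM, against 269 and 278 CPM, with both groups overlapping (edgeR adjusted p = 0.81). Its erythroid form Alas2 had 118, 28 and 6.04 CPM, against 2050 and 644 CPM, without a call (edgeR adjusted p = 0.19), and Ppox, the enzyme before Fech, had 49.4, 37 and 41.5 CPM, against 89.4 and 65.6 CPM (edgeR adjusted p = 0.11). The count of 6 was 1 without WT 1, 2 without WT 2 or MLL::ENL RL, 3 without MLL::ENL L, and 4 without either Cbfb::MYH11 library.

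Genes that supply iron and iron-sulfur clusters were lower beside them. Glrx5, a mitochondrial glutaredoxin needed for iron-sulfur clusters, had 61.2, 70.8 and 63.1 CPM in MLL::ENL tumors, against 580 and 320 CPM in WT cells (log2 fold change −2.79, standard error 0.29, edgeR adjusted p = 0.0039). Isca1 and Iba57, which act later in that assembly, had log2 fold changes of −2.84 and −2.24. Slc25a38, the glycine carrier of mitochondria, had one of −1.84 and Abcb10, an inner membrane transporter that erythroid cells need, one of −2.11. Slc11a2, the iron importer DMT1, had 10.4, 10.3 and 10.4 CPM, against 67.8 and 50.2 CPM, and Tfr2, a transferrin receptor, had 0.278, 1.17 and 6.93 CPM, against 58.4 and 75.4 CPM. All 7 passed by edgeR. Apart from Glrx5 and Tfr2 these genes were chosen for their role among those called, after their values had been seen, so their number says nothing of the pathway as a whole.

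Promoters of these lineage genes are shown for the letters GATAA, the core of the motif bound by GATA factors, read on either strand so that TTATC counts as well. The windows come from RefSeq on GRCm38.p6, 250 bases before to 50 after each transcript start, written 5′ to 3′ on the strand of the gene with the motif in capitals. They are shown because each gene below was called lower in MLL::ENL tumors and holds the motif upstream of its start. For Klf1, Gfi1b and Prss34 the first bases after the start were found in a GENCODE M21 transcript of the gene. For Cpox, Fcer1a and Ccr3 they were not, so the motif positions of these genes are less certain.
Klf1, chr8:84901872-84901936, plus strand, motif at −80: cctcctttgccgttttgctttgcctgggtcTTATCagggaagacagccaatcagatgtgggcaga
Gfi1b, chr2:28622067-28622131, minus strand, motif at −119: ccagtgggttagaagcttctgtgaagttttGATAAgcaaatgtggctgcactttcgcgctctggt
Cpox, chr16:58670092-58670156, plus strand, motif at −86: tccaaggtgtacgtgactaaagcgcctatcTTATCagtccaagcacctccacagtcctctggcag
Fcer1a, chr1:173227287-173227351, minus strand, motif at −92: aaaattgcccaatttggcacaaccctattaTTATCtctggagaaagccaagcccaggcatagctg
Prss34, chr17:25298334-25298398, plus strand, motif at −30: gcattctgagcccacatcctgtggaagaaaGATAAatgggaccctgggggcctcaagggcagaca
Ccr3, chr9:124021912-124021976, plus strand, motif at −29: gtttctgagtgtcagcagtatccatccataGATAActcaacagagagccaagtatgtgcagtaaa

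The letters occurred in 20.2% of the 10530 tested genes that had a promoter window, and in 25.4% of all 32851 windows. They occurred in 12 of 18 erythroid genes with a window, in 7 of 8 eosinophil genes and in 8 of 11 mast cell and basophil genes. These were among the lists with the highest shares. The eosinophil matches include the paralogs Ear1, Ear2 and Ear6, just after the start at 4, 7 and 3. The sex-linked genes above had 4 of 5, and stem and progenitor markers 8 of 17. B cell genes had 3 of 13 and tissue macrophage genes 2 of 12, though both lists held genes called lower. Among called genes, the letters occurred in 36 of the 161 lower genes that had a window (22.4%) and in 15 of the 60 higher (25%). The called genes as a whole thus lay close to the share of all tested genes. Hoxa9, called higher, holds the letters too, at −132. A match is only a description of the sequence, and no binding was measured.

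**Figure D2:**
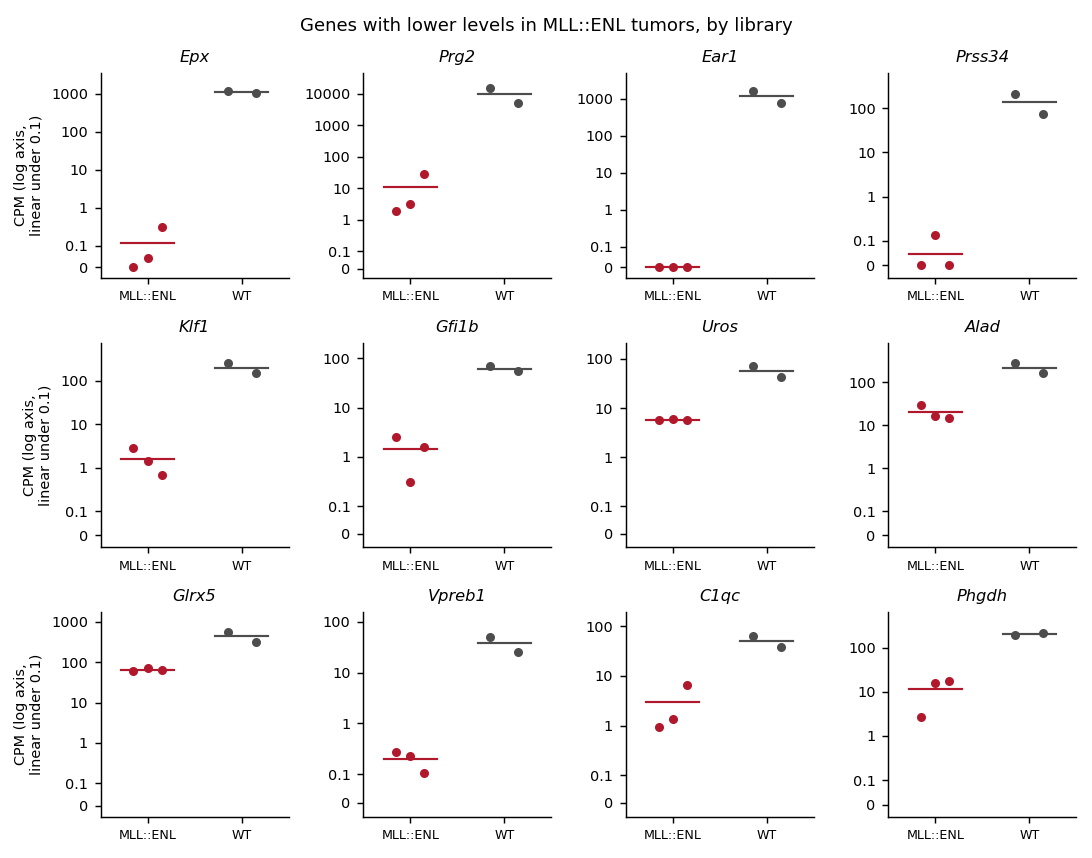
CPM of 12 called genes in each library (points) with the group mean (line), MLL::ENL tumors (n = 3) left and WT cKit+ cells (n = 2) right, on a log axis that is linear under 0.1 CPM. The groups do not overlap for any of them, from Ear1 with 0 counts in all tumors to Glrx5 at 61.2, 70.8 and 63.1 CPM against 580 and 320 CPM.

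Some B cell and platelet genes were lower as well. Vpreb1, a part of the surrogate light chain of pre-B cells, had 0.278, 0.225 and 0.104 CPM in MLL::ENL tumors, against 50.8 and 25.5 CPM in WT cells, and kept its call without any 1 library (log2 fold change −7.55, edgeR adjusted p = 0.003). Vpreb3 and its partner Igll1 were called as well, with at most 0.278 and 0.541 CPM in a tumor. Dntt and Rag1, which build antigen receptors, had 0 counts in all tumors, against 53 and 52 CPM and 26.5 and 19.9 CPM, at least 910-fold and 391-fold lower, yet neither passed (edgeR adjusted p = 0.071 and 0.056). Of 18 B cell genes 3 were lower, as were 1.56% of all tested genes, and the median log2 fold change of the list was −2.47. The count was 1 without WT 1, 2 without WT 2 or MLL::ENL L, 5 without MLL::AF9 2 and 6 without MLL::AF9 47. The 15 megakaryocyte and platelet genes also had a median log2 fold change of −2.47. Of these 2 were lower, beside 1.56% of all tested genes: Pf4, a platelet chemokine, and Gp5, a platelet glycoprotein, with 0, 0.0902 and 0.104 CPM and 0.742, 0.0902 and 0 CPM in the tumors. Their levels in WT cells were 42.8 and 26.8 CPM and 12.6 and 9.7 CPM, and no gene was called once WT 1, WT 2, MLL::ENL RL or either Cbfb::MYH11 library was left out, 1 without either of the other MLL::ENL libraries, 4 without MLL::AF9 2, and 3 without MLL::AF9 47 or 42. Among 20 T and NK cell genes none was called by edgeR, with 1 higher and 2 lower below an unadjusted p of 0.05, while DESeq2 called 2 and limma 0.

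Of 19 tissue macrophage genes 4 were lower in MLL::ENL tumors, as were 1.56% of all tested genes, and the median log2 fold change of the list was −2.63. C1qc, a chain of complement C1q, had 0.928, 1.35 and 6.57 CPM in MLL::ENL tumors, against 63.7 and 37.5 CPM in WT cells (log2 fold change −4.08, edgeR adjusted p = 0.033). Axl, a receptor for dying cells, had 1.76, 1.8 and 10.4 CPM, against 67 and 68.5 CPM, and Mrc1, the mannose receptor, had 1.11, 1.31 and 3.02 CPM, against 19.7 and 24.6 CPM. Hmox1, heme oxygenase, was the last of the 4, at 21.6, 13.4 and 33.7 CPM, against 120 and 81 CPM. Adgre1, the F4/80 antigen, did not follow them, at 48.1, 33.4 and 73 CPM, against 46 and 39.5 CPM. Leaving out WT 1, WT 2 or MLL::ENL RL gave a count of 0, against 1 without MLL::ENL NO or either Cbfb::MYH11 library, 7 without MLL::ENL L or MLL::AF9 47, and 8 without MLL::AF9 2. Cxcl12, the chemokine by which marrow stroma retains stem cells, had 1.58, 0.18 and 1.25 CPM in the tumors, against 47.9 and 27.9 CPM (log2 fold change −5.28, edgeR adjusted p = 0.022). It was the 1 called gene of 9 tested endothelial and stromal genes, whose median log2 fold change was −2.83. Summed over the 14 members in the files, that list held 39.9, 114 and 151 CPM in the tumors, against 95 and 94.7 CPM in WT cells. Summed macrophage gene levels were 249, 401 and 374 CPM in the tumors, against 1140 and 952 CPM in WT cells.

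**Figure D3:**
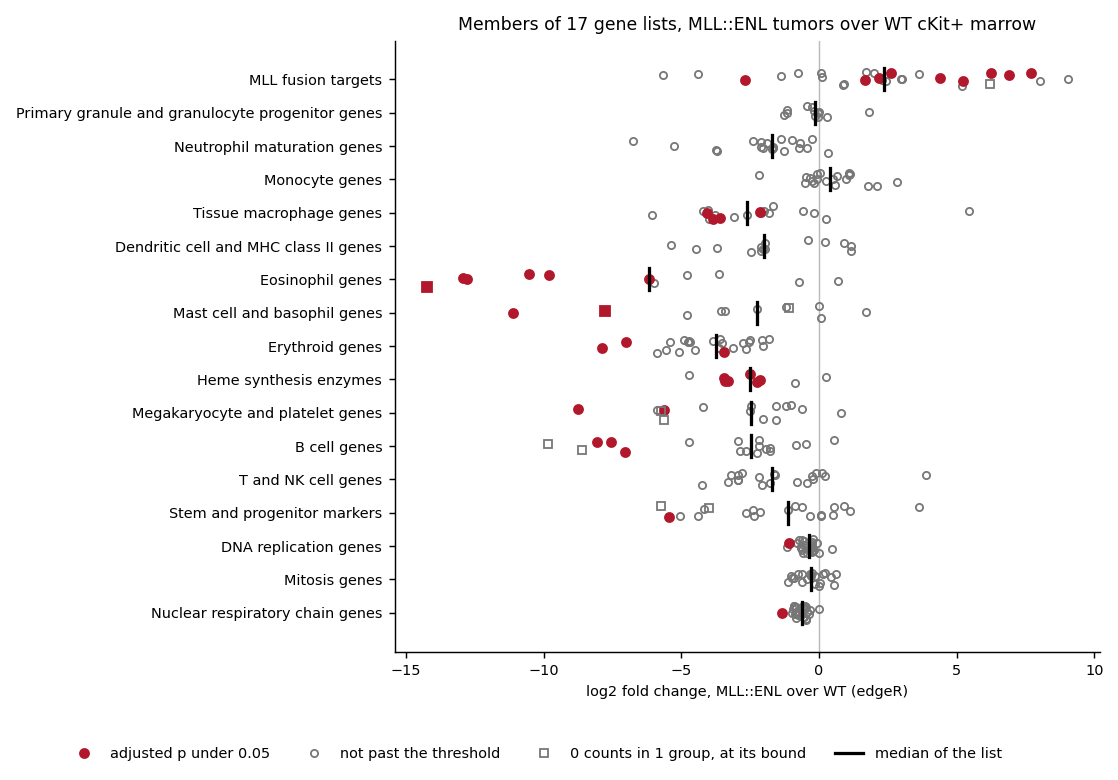
Log2 fold change (MLL::ENL over WT, horizontal axis) of each tested member of 17 gene lists, one row per list, with called genes filled, other genes open, genes with 0 counts in 1 group drawn as squares at their bound, and the list median as a bar. Targets of MLL fusions lie to the right with a median of 2.36, eosinophil, erythroid and heme genes to the left, and mitosis and primary granule genes near 0.

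No member of the granulocyte and monocyte gene lists was called by edgeR. None of 12 primary granule genes passed by edgeR (1 higher below an unadjusted p of 0.05, while DESeq2 called 1 and limma 0), and their median log2 fold change was −0.16. Mpo, myeloperoxidase, had 1000, 6650 and 410 CPM in MLL::ENL tumors, against 5460 and 7550 CPM in WT cells, and Elane, neutrophil elastase, had 2330, 7350 and 1050 CPM, against 3990 and 3390 CPM. The tumors themselves varied widely, with MLL::ENL RL within the WT range for Mpo and above it for Elane. For later neutrophil genes the high tumor was instead MLL::ENL NO. Ltf, the lactoferrin of secondary granules, had 2370, 127 and 51.7 CPM, against 9090 and 13000 CPM, and S100a8, a calprotectin chain, had 19400, 2560 and 1010 CPM, against 37700 and 18700 CPM. None of 20 neutrophil maturation genes passed by edgeR (5 lower below an unadjusted p of 0.05, while DESeq2 called 2 and limma 0), and none of 20 monocyte genes did (4 higher below an unadjusted p of 0.05, while DESeq2 called 1 and limma 0). Their median log2 fold changes were −1.71 and 0.38. Of the neutrophil genes 8 lay below WT in every tumor, as did 23.1% of all tested genes. Of the monocyte genes 6 lay above WT in every tumor, as did 21.2% of all tested genes. Summed over the neutrophil list the tumors held 84200, 12500 and 6230 CPM, against 149000 and 88600 CPM, so this list spread more among the tumors than between the WT libraries. Cd34, a progenitor antigen, had 3.53, 20.4 and 325 CPM, against 85.3 and 74.1 CPM.

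Among other metabolic genes that fell were enzymes of lipid, serine and polyamine synthesis. Fads2 and Fads1, the fatty acid desaturases, had 1.21, 0.225 and 0.313 CPM and 3.99, 8.03 and 7.66 CPM in MLL::ENL tumors, against 19.3 and 24.3 CPM and 35.6 and 41.8 CPM in WT cells. Acss2, which makes acetyl-CoA from acetate, had 5.2, 4.64 and 4.01 CPM, against 23.4 and 26.7 CPM, and kept its call without any 1 library (log2 fold change −2.44, standard error 0.26, edgeR adjusted p = 0.0039). Sqle and Idi1, enzymes of sterol synthesis, were lower by 2.44 and 1.18 on the log2 scale. Phgdh, the first enzyme of serine synthesis, had 2.69, 15.5 and 17.4 CPM, against 193 and 212 CPM (log2 fold change −4.08, edgeR adjusted p = 0.044), and was the 1 called gene of 13 for serine and one-carbon metabolism. Odc1, ornithine decarboxylase, had 112, 161 and 90.3 CPM, against 521 and 460 CPM. The desaturase and sterol genes were chosen for their role among those called, after their values had been seen. Fads1, Sqle, Idi1, Phgdh and Odc1 were each called in 2 to 4 of the 10 fits that left out 1 library, and Fads2 in 8.

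Few genes of the respiratory chain were called. None of the 13 mitochondrial transcripts passed by edgeR, with 8 higher below an unadjusted p of 0.05, as were 10.6% of all tested genes, while DESeq2 called 8 and limma 1, at a median log2 fold change of 2.61. The oxidase subunit mt-Co1 had 41600, 15500 and 17400 CPM in MLL::ENL tumors, against 1990 and 3130 CPM in WT cells (edgeR adjusted p = 0.088). Of 31 nuclear respiratory chain genes 1 was lower, Ndufv1 of complex I at 97.1, 91.8 and 89.3 CPM, against 265 and 205 CPM (log2 fold change −1.34, edgeR adjusted p = 0.036), with 15 lower and 0 higher below an unadjusted p of 0.05, where 11.4% of all tested genes were lower. Their median log2 fold change was −0.63, and 18 of the 31 were below WT in every tumor, as were 23.1% of all tested genes. The Ndufv1 call was lost without any 1 of the WT or MLL::ENL libraries or MLL::AF9 42.

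The steadiest differences were all falls. Of the 318 calls, 22 were kept in each of the 10 fits that left out 1 library, all of them lower. Besides genes named above they included Smo, the transducer of Hedgehog signals, and Epdr1, an ependymin-related protein, with 0 counts in all MLL::ENL tumors, against 20.1 and 25.8 CPM and 32.5 and 26.4 CPM in WT cells, at least 409-fold and 500-fold lower. Sept8, a septin, had 2.04, 2.66 and 4.64 CPM, against 74.4 and 86.4 CPM, and Rab4a, a GTPase of early endosomes, had 0.0928, 0.0902 and 0.104 CPM, against 7.58 and 6.18 CPM. Maoa, monoamine oxidase A, had 2 counts in the tumors together, a ratio of 205 (95% exact counting interval 56.1 to 1700). Cbx6, a Polycomb chromobox protein, had 3.71, 4.37 and 6.93 CPM, against 50.4 and 92 CPM (log2 fold change −3.82, edgeR adjusted p = 0.0071).

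Most calls against WT were shared with the MLL::AF9 model. Of the 86 genes called higher, 45 were also called higher in MLL::AF9 tumors against the same WT libraries, as were 0.78% of all tested genes. Of the 232 called lower, 158 were also called lower there, as were 2.03% of all tested genes. The shared WT libraries and the shared estimate of the spread favor calls in both models, so these overlaps do not test likeness. With the same WT libraries, 16 of the 86 were also called higher in Cbfb::MYH11 tumors and 14 were called lower. Of the 232, 53 were also called lower there and 29 were called higher. Among all tested genes 3.54% were called higher and 6.88% lower in that model. The median log2 fold changes of these 86 and 232 genes were 2.61 and −3.31 in MLL::ENL, where they were selected, and 2.16 and −2.65 in MLL::AF9. Against the 3 MLL::AF9 tumors, from transgenic mice, 2 genes differed (0.0134% of those tested) and both were lower in MLL::ENL. They are named because they were the ones that passed, once their values had been seen. Dpp4, the surface peptidase CD26, had 4.45, 3.52 and 5.42 CPM in MLL::ENL tumors, against 34.2, 34.2 and 29.1 CPM in MLL::AF9 2, 47 and 42 (log2 fold change −2.86, edgeR adjusted p = 0.036). It was lower in every MLL::ENL tumor than in any other library, at 9.71 and 15.2 CPM in WT cells, where the difference was just outside the threshold (log2 fold change −1.48, edgeR adjusted p = 0.0521). Gm9008, an unnamed gene model, had 1 count in the MLL::ENL tumors, against 8.91, 28.3 and 18.7 CPM in MLL::AF9 tumors. None was higher by edgeR, with 441 below an unadjusted p of 0.05, while DESeq2 called 97 and limma 0. The number that differed was 0 without any 1 of the MLL::ENL libraries and 116 without MLL::AF9 47. The lead genes were measured in MLL::AF9 tumors as follows: Hoxa5 had 6.22, 15.5 and 4.44 CPM, Hoxa9 had 18.5, 214 and 46.8 CPM, and Penk had 28.8, 165 and 170 CPM. For Hoxa5 these lie below every MLL::ENL tumor, while Hoxa9 and Penk overlapped, and none differed by the test. Dmrtb1 and Tcf24 had 0.919, 3.74 and 14.2 CPM and 0.707, 0.349 and 0.395 CPM in MLL::AF9 tumors, also below every MLL::ENL tumor and without a call.

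Against the 2 Cbfb::MYH11 tumors, from Mx1-Cre mice given Poly(I:C), 2989 genes differed (20.1%), with 1634 higher in MLL::ENL (11%) and 1355 lower (9.11%). The count was 1093 without Cbfb::MYH11 27 and 1727 without Cbfb::MYH11 30. Some genes called against WT moved to the other side of WT in that model. Csf2ra had 403, 465 and 560 CPM in MLL::ENL tumors, against 13.4 and 11.2 CPM in Cbfb::MYH11 tumors, with WT cells at 133 and 102 CPM in between (log2 fold change 5.27, edgeR adjusted p = 5.1e-05). Apoc2 had 49.2, 44.7 and 67.4 CPM, against 0.618 and 0.581 CPM, and Card9, an adaptor of fungal receptors, had 172, 145 and 151 CPM, against 1.18 and 1.16 CPM. In the opposite direction Fcer1a had 0 counts in MLL::ENL tumors, against 682 and 1010 CPM in Cbfb::MYH11 tumors, and Rab4a had at most 0.104 CPM, against 36.7 and 69.5 CPM. Against the same WT libraries, 2.14% of genes were called in MLL::ENL tumors, 2.81% in MLL::AF9 tumors (0.78% higher and 2.03% lower) and 10.4% in Cbfb::MYH11 tumors (3.54% higher and 6.88% lower). By list, the median log2 fold change over WT was 2.36 in MLL::ENL and 0.49 in Cbfb::MYH11 tumors for the MLL targets, and −3.40 and 4.26 for mast cell and basophil genes. For erythroid genes these medians were −3.75 and −1.08, and for neutrophil maturation −1.71 and −8.61, with the WT libraries shared by both comparisons. MLL::AF9 tumors had medians over WT of 2.17 for the MLL targets and −1.93 for mast cell and basophil genes. Their medians were −5.45 for erythroid genes and −0.62 for neutrophil maturation. In the direct test 10 of 28 MLL targets were higher and 2 lower in MLL::ENL than in Cbfb::MYH11 tumors, 14 of 20 neutrophil maturation genes were higher, and 6 of 11 mast cell and basophil genes were lower.

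**Figure D4:**
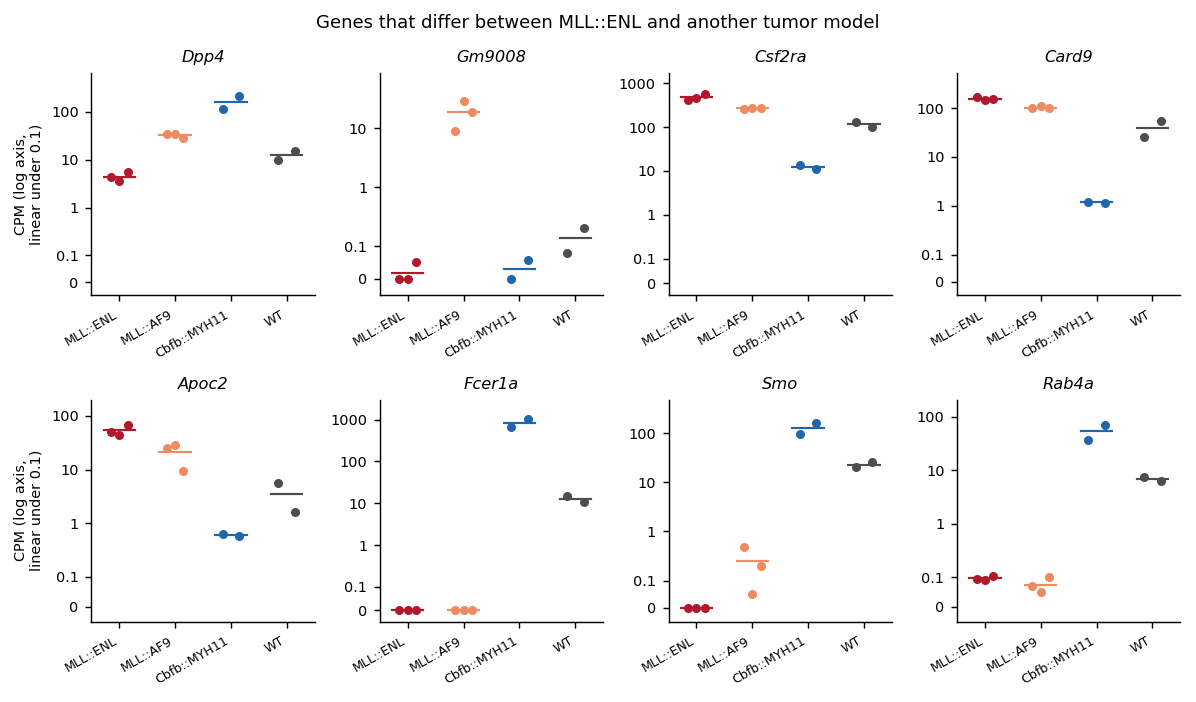
CPM of 8 genes in each library (points) with the group mean (line) for MLL::ENL (n = 3), MLL::AF9 (n = 3), Cbfb::MYH11 (n = 2) and WT (n = 2), on a log axis that is linear under 0.1 CPM. Dpp4 is lowest in MLL::ENL at 4.45, 3.52 and 5.42 CPM and Gm9008 is read mainly in MLL::AF9, while Csf2ra, Card9 and Apoc2 lie above WT in MLL::ENL and below it in Cbfb::MYH11, and Fcer1a, Smo and Rab4a the other way round.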

How the data were processed

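RNA was sequenced from 3 MLL::ENL, 2 WT, 3 MLL::AF9 and 2 Cbfb::MYH11 mice. Per the labels and methods, the authors checked reads with FastQC, used STAR for alignment to mm10 and RSEM for quantification (versions not given in the sources used here), and deposited expected counts per gene, used here, beside TPM and FPKM. These expected counts were rounded to whole numbers, scaled by TMM and tested with edgeR 4.0.16 (limma 3.58.1, R 4.3.3): filterByExpr by group, robust dispersion and quasi-likelihood fit, 6 residual degrees of freedom, Benjamini-Hochberg adjustment over 14875 genes. The common biological coefficient of variation was 0.515. DESeq2 1.42.0, limma-voom, other scalings and filters, and leaving out each library were alternatives. Standard errors are the log2 fold change over the square root of F. Folds against a group with 0 counts are bounds from a floor of 3 counts over the group, and with 1 to 3 counts ratios with 95% exact binomial intervals, which cover counting error only. Genes were placed by GENCODE M21 (GRCm38). Named genes were list members, and called genes of largest change (ranked apart when the lower group averaged under 10 counts), the highest levels or the smallest adjusted p, or called alike against WT and both other models (none met this). Genes named against MLL::AF9 or Cbfb::MYH11, genes kept in every fit without 1 library, and some iron, iron-sulfur and lipid genes were named after their values were seen. Lists and members were chosen with earlier results of these data known. The script was tested on simulated data. Some genes are not reported here.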

Additional observations from a re-analysis of the deposited data

Results flagged for a closer look

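Genes were marked here where the test between MLL::ENL tumors and another tumor model itself passed. Against MLL::AF9 tumors these were Dpp4, with a log2 fold change of −2.86, and Gm9008, with 1 count in the MLL::ENL tumors, against 1074 counts in the MLL::AF9 tumors, a ratio of 1030 (95% exact counting interval 184 to 40600).

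Against Cbfb::MYH11 tumors, named genes were marked where MLL::ENL and Cbfb::MYH11 tumors were called in opposite directions against the same WT libraries and also differed from each other. Higher in MLL::ENL were Card9 by 7.05, Apoc2 by 6.47, F10 by 5.73, Mefv, the pyrin gene, by 5.47, Ptgr1, a prostaglandin reductase, by 5.44, Plxnd1, a semaphorin receptor, by 5.43, Csf2ra by 5.27 and Tcirg1, a proton pump subunit, by 2.68 on the log2 scale. Sept8 had a log2 fold change of −7.42 there, Rab4a of −9.01, Mmp14, a membrane metalloproteinase, of −10.42, Tmem9 of −5.31 and Acss2 of −4.34. Fcer1a and Smo had 0 counts in the MLL::ENL tumors, at least 14500-fold and 2220-fold lower than in Cbfb::MYH11 tumors. Shank3 had 1 count in the MLL::ENL tumors, a ratio of 10300 (95% exact counting interval 1850 to 407000). Rab27b, a GTPase of secretory granules, and Adgra3, an adhesion receptor, had 2 counts each, ratios of 1810 (500.0 to 14900) and 1240 (344 to 10300).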

How the results depend on the processing

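The number of genes that differed between MLL::ENL tumors and WT cKit+ cells, 318, became 134 with total counts as the scale, 501 with no filter on low counts, 1815 with DESeq2, 639 with limma-voom, 654 in a fit of the MLL::ENL and WT libraries alone and 154 with MLL::AF9 added. With MLL::ENL L as the only MLL::ENL library, an alternative chosen after seeing the data in which a lone sample is assumed to vary like the other groups, it was 9. Leaving out 1 library gave 24 to 723. The share called higher was 27%, against 50.9% with DESeq2 and 38.2% with the MLL::ENL and WT libraries alone. Total counts moved the median log2 fold change of all genes to 0.37. Against MLL::AF9 tumors the 2 genes became 0 with total counts, 0 with limma-voom, 53 with no filter, 481 with DESeq2 and 0 with MLL::ENL L alone, and 0 to 116 without 1 library. Against Cbfb::MYH11 tumors the 2989 genes became 1081 with MLL::ENL L alone and 1093 to 3446 without 1 library. The cause was not tested. Of 184 named genes, 113 were called, 54 of them in all 11 alternatives of scaling, filter, tool, threshold or models fitted and 22 in every fit without 1 library, and none changed direction. The tumors and the WT cells came from different mice, so there were no pairs to analyze. Of those 11 alternatives, Hoxa10 was called in 6 and Pmaip1 in 9. The threshold alternative, an absolute log2 fold change of at least 1 in the main fit, could remove no call, because the smallest among called genes was 1.02.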

Other observations

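The heat shock gene Hspa1a had 2.04, 623 and 44 CPM in MLL::ENL NO, RL and L, against 12.6 and 20.2 CPM in WT cells, so a single tumor held nearly all of it, and Mllt3, the gene of the AF9 partner, had 4.92, 2.43 and 1.25 CPM, against 18.8 and 19.4 CPM, with no overlap and no call (edgeR adjusted p = 0.11). Bcl11b, a T cell and stem cell regulator, had a log2 fold change of 3.89 and did not pass (edgeR adjusted p = 0.068). Among 22 interferon-stimulated genes none was called by edgeR, with 7 lower below an unadjusted p of 0.05, while DESeq2 called 5 and limma 2, and the median log2 fold change was −0.78. Ifi44, one of them, had 0 counts in all 3 MLL::ENL tumors, against 195 counts in the WT libraries, at least 104-fold lower. Cdkn1c, the CDK inhibitor p57, had 144, 102 and 53.9 CPM, against 1.26 and 1.41 CPM, with no call (edgeR adjusted p = 0.06).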
